A study of Mus musculus with 4 samples.

Results

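Chemokine ligands are small secreted proteins that steer white blood cells along a concentration gradient by binding G protein-coupled receptors. The family was taken as all mouse genes on the array whose single gene symbol begins with Ccl, Cxcl, Cx3cl or Xcl followed by a number and at most 1 letter, with Cxcl12 left out. The rule itself reads symbols only. It gave 32 genes, read by 48 probe sets, of 18193 genes with a symbol of their own on the array. Of the 32, 18 are CC, 12 CXC, 1 CX3C and 1 XC chemokines.

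Mesothelial and submesothelial cells had been isolated by surgery at embryonic day 17.5, from livers of embryos on a C57BL/6 background. The p57-/- embryos lacked Cdkn1c, the gene of the cyclin-dependent kinase inhibitor p57 (Kip2), and the p57+/+ embryos were wild type. The labels describe neither how the allele was made nor whether a sample was 1 embryo, a pool or a litter, so p-values measure the spread between samples, which may be partly technical. Each genotype had 2 single-colour Affymetrix arrays, 1 in experiment 1 and 1 in experiment 2, and a replicate number below is the experiment number of the titles.

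The family is named for the spacing of its conserved cysteines, which are adjacent in CC chemokines and separated in CXC chemokines. CXC ligands of the Cxcl1 group attract neutrophils, many CC ligands attract monocytes and macrophages, and others act on lymphocytes at epithelial surfaces. Genes for the inflammatory members are switched on by NF-kB or interferon signalling, while homeostatic members are made without an inflammatory stimulus. The fetal liver is a blood-forming organ, rich in developing granulocytes and macrophages as well as in red cell precursors.

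RefSeq promoter windows (GRCm38.p6, 250 bases before to 50 after the annotated start) were at hand for 22 of the 32 genes, in 25 windows. Stretches of Cxcl1, Cxcl2 and Cxcl3 follow because these genes lie close together in the gene order and carry the same kind of element. Cxcl1 was Present on all 4 arrays and neither of the others on more than 1. For Cxcl1 only probe set 1441855_x_at was Present on all 4, and its ending marks probes that may bind other transcripts. Its probe set 1419209_at was Present on 2 arrays and 1457644_s_at on 1. Each stretch runs 5′ to 3′ along the gene from position -110 to -11, where -1 is the last base before the start. Capitals mark matches, on either strand, to an NF-kB motif made of GGG, any 2 bases and TTTCC.
Cxcl1, chr5:90891135-90891234, + strand: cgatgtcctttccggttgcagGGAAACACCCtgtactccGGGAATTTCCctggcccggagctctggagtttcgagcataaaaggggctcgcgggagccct
Cxcl2, chr5:90903789-90903888, + strand: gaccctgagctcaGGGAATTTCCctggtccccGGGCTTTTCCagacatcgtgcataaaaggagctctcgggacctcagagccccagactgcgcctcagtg
Cxcl3, chr5:90785991-90786090, + strand: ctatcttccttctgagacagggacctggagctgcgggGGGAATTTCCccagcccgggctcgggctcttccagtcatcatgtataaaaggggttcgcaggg
The element GGGAATTTCC was found in all 3 stretches. Cxcl1 and Cxcl2 shared a longest run of 14 bases, GGGAATTTCCCTGG, and each of them shared 11 bases, GGGAATTTCCC, with Cxcl3.

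The stretches of Ccl9 and Ccl6 are shown because these adjacent genes were both Present on all 4 arrays and both had p57-/- replicate 1 highest with each of their probe sets. They run from position -100 to -1, with capitals again marking the NF-kB motif.
Ccl9, chr11:83578637-83578736, - strand: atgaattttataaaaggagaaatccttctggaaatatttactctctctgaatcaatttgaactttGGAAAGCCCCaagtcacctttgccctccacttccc
Ccl6, chr11:83593088-83593187, - strand: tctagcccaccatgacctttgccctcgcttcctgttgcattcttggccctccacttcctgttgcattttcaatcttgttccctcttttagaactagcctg
The match in Ccl9 begins at position -35, none was found in the Ccl6 window, and the longest run shared by the stretches was 13 bases, GCCCTCCACTTCC. For Cxcl10, a gene known to respond to interferon, a stretch of 100 bases from position -240 is given. Capitals mark an interferon-stimulated response element, searched on both strands as TTTC, any 2 bases and TTTC.
Cxcl10, chr5:92349030-92349129, - strand: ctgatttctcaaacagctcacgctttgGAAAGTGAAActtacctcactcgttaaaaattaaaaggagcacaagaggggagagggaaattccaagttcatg

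Across the family the NF-kB motif was found in 5 of the 25 windows, those of Ccl9, Ccl20, Cxcl1, Cxcl2 and Cxcl3, beside 1.63% of all 32851 windows of the table. The interferon element was found in 2, Cxcl10 and Cxcl14, beside 3.44% of all windows. The gamma-activated site TTCNNNGAA was found in Ccl17 and Cxcl14, beside 8.3%. No matches overlapped in the windows of the family. Such matches describe the letters of the windows and not the binding of any factor.

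The 4 arrays had 48.4% to 50% of their probe sets called Present, and the lowest Present signal was 12.4 to 15.4. Cdkn1c was at 7.79 and 7.28 (both Absent) in p57-/- against 10255 and 9866 in p57+/+, so the labels and the targeted transcript matched on all 4 arrays. Of 16 mesothelial genes, 15 were Present on at least 2 arrays, and Calb2 was Absent on every array. The surface glycoprotein gene Msln gave 518 and 703 in p57-/- against 624 and 850 in p57+/+. The summed signal of the list lay the other way, at 24567 and 30208 in p57-/- against 23220 and 28750 in p57+/+. Of its 26 tested probe sets, 8 had both p57-/- arrays above both p57+/+ arrays, beside 19.8% of all tested. Another 3 had both below, beside 18.8%. With limma 0 passed the adjusted threshold, and 8 had an unadjusted p under 0.05, beside 7.67% of all tested. In such bulk samples, fewer cells of a type and less RNA per cell cannot be told apart. The T cell receptor complex genes Cd3d, Cd3e and Cd3g were Absent on every array, as were 5 other genes of the 12 in the T and NK cell list. All 15 macrophage genes and all 13 neutrophil genes were Present on at least 2 arrays. Among all genes with a symbol of their own the share was 64.1%.

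The arrays also differed in sex-linked transcripts. The Y-linked gene Eif2s3y gave 966 and 904 in p57-/- against 2.56 (Absent) and 1734 in p57+/+. Xist, the X-inactivation RNA of female cells, gave 970 and 857 in p57-/- against 1484 and 6.29 (Absent) in p57+/+ with probe set 1427262_at. Both p57-/- arrays thus held male and female transcripts, p57+/+ replicate 1 held Xist without Eif2s3y, and p57+/+ replicate 2 held Eif2s3y with Xist Absent on this probe set. Within p57+/+, sex and experiment cannot be told apart, and the part of sex in the ligand signals was not tested.

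Most chemokine ligands were not detected at the fetal liver surface. A gene counted as detected where a probe set of it had a Present call on 2 or more arrays, which held for 8 of 32 genes, or 25%, beside 64.1% of all genes with a symbol of their own. These were Cxcl1, Ccl6, Ccl9, Cxcl16, Cxcl10, Ccl25, Ccl27a and Ccl28. Taking their probe sets together, each of the 8 was Present on all 4 arrays, as the map of detection calls shows. A further 5 genes were Present on 1 array only and 19 on none. Counted by array, 8 and 9 ligand genes were Present in p57-/- against 11 and 9 in p57+/+.

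**Figure D1:**
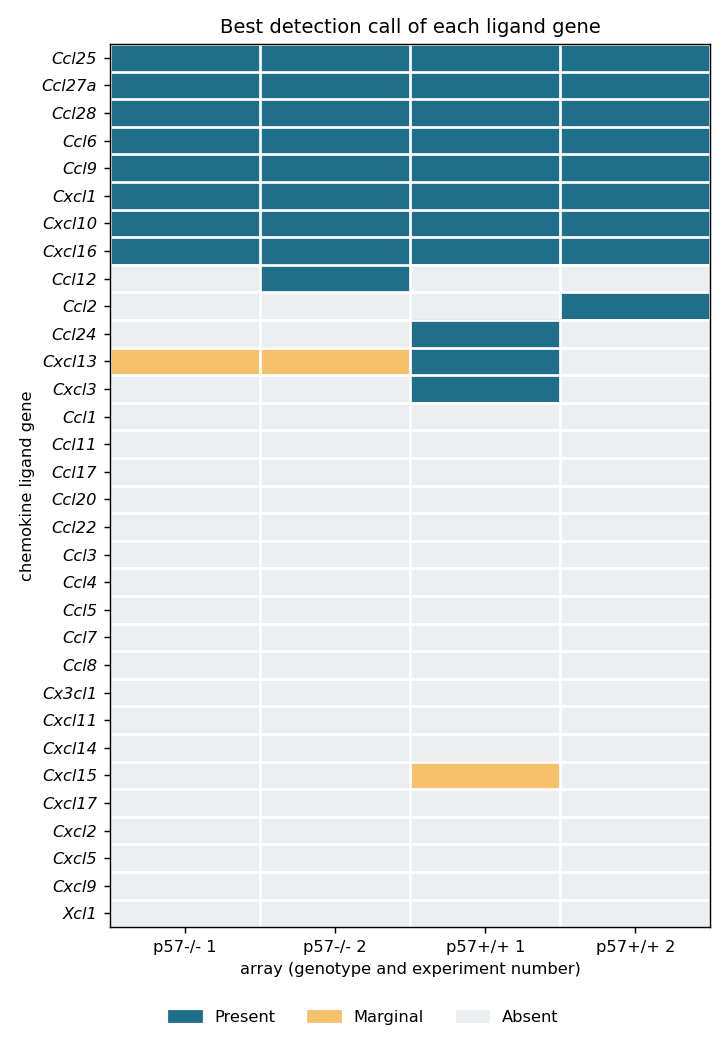
Best detection call of each of the 32 chemokine ligand genes (rows) on each array (columns: p57-/- replicates 1 and 2, p57+/+ replicates 1 and 2), over the probe sets of the gene. The upper 8 genes are Present on every array, 5 genes are Present on 1 array, and the remaining 19 are Present on none.

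None of the tested ligand probe sets differed between the genotypes past the threshold. The 8 detected genes had 13 probe sets that were Present on at least 2 arrays, whatever the genotype, and these entered the fit. With limma, 0 of the 13 had an adjusted p under 0.05, beside 0.00439% of all 22800 probe sets tested, which is Cdkn1c alone. At an unadjusted p under 0.05 the count was also 0 of 13, beside 7.67% of all. The adjusted p-values of the 13 ran from 0.646 to 0.935. With 2 arrays a genotype, the 95% intervals of their log2 changes (p57-/- minus p57+/+) were wide. They reached 0.40 either side of the estimate at the narrowest and 2.56 at the widest. These intervals are not adjusted for the number of probe sets tested, so differences larger than these limits could also miss the adjusted threshold.

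The neutrophil attractant Cxcl1, which acts on the receptor Cxcr2, was high on 1 array. Its probe set 1441855_x_at gave signals of 575 and 263 in p57-/- against 207 and 266 in p57+/+, Present on all 4 arrays. Replicate 1 of p57-/- stood above the other 3, replicate 2 lay within the p57+/+ range, and the genotypes overlapped. By experiment, the log2 difference came to 1.47 in the first and -0.02 in the second. The fitted log2 change was 0.73 (SE 0.34, adjusted p = 0.646), with an interval of -0.03 to 1.48. Without p57-/- replicate 2 it was 1.29 (adjusted p = 0.0475), in a fit where the lone p57-/- array is assumed to vary like the p57+/+ arrays, and without p57-/- replicate 1 it was 0.16. Without p57-/- replicate 2 this was 1 of 13 ligand probe sets past the threshold, beside 0.969% of all tested, with 1 higher (0.43% of all) and 0 lower (0.539%).

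Both other Cxcl1 probe sets were also highest in p57-/- replicate 1, but lowest in p57-/- replicate 2. Probe set 1419209_at gave 273 and 12.9 (Absent) in p57-/- against 54.0 (Absent) and 165 in p57+/+. In each experiment the lower signal was Absent, so the size of the difference was not measured. The fitted change was -0.67 (SE 1.14, adjusted p = 0.908), and -0.07 with an offset of 50 added to every signal. Probe set 1457644_s_at gave 245 and 5.23 (Absent) in p57-/- against 156 and 172 (both Absent) in p57+/+, and was not tested. Thus the 3 probe sets had their highest signal on the same array and disagreed on whether p57-/- replicate 2 lay near p57+/+ or far below it. In Affymetrix naming, the ending _x_at marks probes that may bind other transcripts and _s_at probes shared by several transcripts.

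The other CXC ligands of the same group were not detected. Cxcl2, a close relative of Cxcl1, gave 13.4 and 11.4 in p57-/- against 23.5 and 18.0 in p57+/+, Absent on all arrays. Cxcl3 gave 31.9 and 6.46 in p57-/- against 22.8 (Present) and 8.82 in p57+/+. Cxcl5, made by epithelial cells, gave 27.8 and 46.8 in p57-/- against 9.07 and 40.6 in p57+/+, all Absent. The receptor gene Cxcr2 gave 174 (Present) and 253 (Marginal) in p57-/- against 185 (Marginal) and 202 (Absent) in p57+/+, and fell short of the filter.

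Ccl6 and Ccl9, CC chemokines of myeloid cells that bind Ccr1, were Present on every array with both probe sets each. The genes are neighbours in the RefSeq gene order. Ccl9 probe set 1417936_at gave 7143 and 4684 in p57-/- against 5287 and 5557 in p57+/+. The p57-/- arrays lay on either side of both p57+/+ arrays, and the fitted log2 change was 0.09 (SE 0.18, adjusted p = 0.919), with an interval of -0.31 to 0.50. Probe set 1448898_at gave 4189 and 2359 in p57-/- against 3377 and 2547 in p57+/+, with a change of 0.10 (SE 0.24, adjusted p = 0.935). The order was the same, with p57-/- replicate 1 highest and replicate 2 lowest.

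Ccl6 followed Ccl9 with 1 of its probe sets. Probe set 1417266_at gave 1172 and 668 in p57-/- against 830 and 816 in p57+/+, again with p57-/- replicate 1 highest and replicate 2 lowest, and a fitted change of 0.10 (SE 0.24, adjusted p = 0.932). Probe set 1420249_s_at gave 381 and 282 in p57-/- against 246 and 232 in p57+/+. Here both p57-/- arrays lay above both p57+/+ arrays, with log2 differences of 0.63 in experiment 1 and 0.28 in experiment 2. Its fitted change was 0.46 (SE 0.23, adjusted p = 0.655), with an interval of -0.05 to 0.96.

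Macrophage transcripts had the same array highest and the same array lowest. The summed signal of 15 macrophage genes, with the brightest probe set of each by mean log2 signal, was 43781 and 32646 in p57-/- against 36688 and 36934 in p57+/+. Of the 20 tested macrophage probe sets, 16 were highest in p57-/- replicate 1, beside 30.1% of all tested probe sets, and their median log2 change came to 0.40 in experiment 1, against -0.15 in experiment 2. The sum of 9 megakaryocyte genes was 20398 and 13265 in p57-/- against 13521 and 15136 in p57+/+. This list is not separate from chemokines, since it holds the platelet chemokine genes Pf4 and Ppbp. They made up 14066 and 9047 of the sum in p57-/- against 8576 and 9888 in p57+/+. The sum of 13 neutrophil genes was 218184 and 225387 in p57-/- against 201685 and 203569 in p57+/+. The sum of 10 endothelial genes was 11365 and 8867 in p57-/- against 8998 and 10317 in p57+/+, also with p57-/- replicate 1 highest and replicate 2 lowest, and 14 of 22 mesenchyme probe sets were highest in p57-/- replicate 1. The part of these cell types in the ligand signals was not tested.

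**Figure D2:**
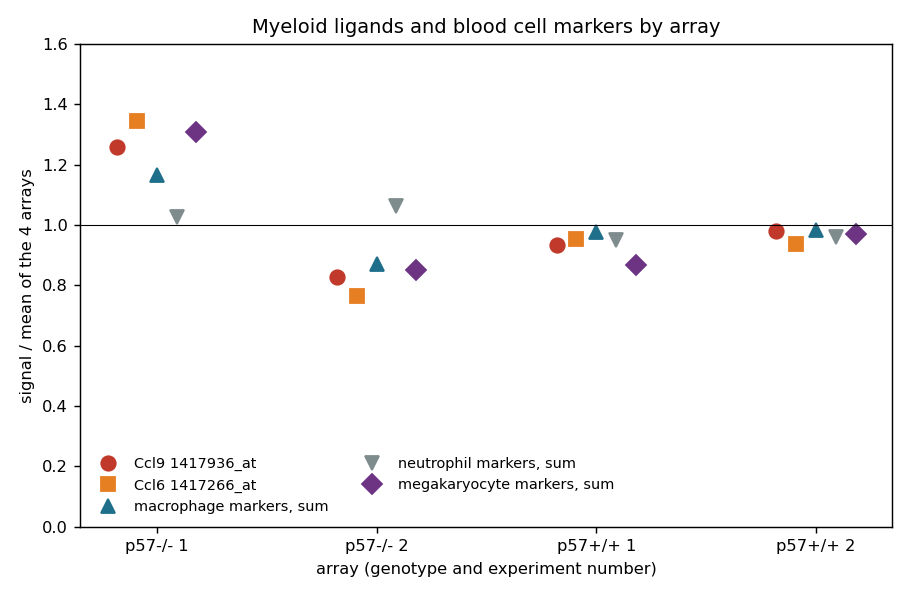
Signal on each array divided by the mean of the 4 arrays, for a Ccl9 and a Ccl6 probe set and for the summed signals of macrophage (15 genes), neutrophil (13) and megakaryocyte (9) lists. The megakaryocyte list includes the chemokine ligand genes Pf4 and Ppbp. The Ccl9 and Ccl6 probe sets and the macrophage and megakaryocyte sums are highest in p57-/- replicate 1 and lowest in p57-/- replicate 2, while the neutrophil sums of both p57-/- arrays lie above both p57+/+ arrays.

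Cxcl16, a membrane-bound CXC chemokine and scavenger receptor that binds Cxcr6, was likewise highest in p57-/- replicate 1. Probe set 1449195_s_at gave 271 and 178 in p57-/- against 142 and 181 in p57+/+, with a fitted log2 change of 0.45 (SE 0.28, adjusted p = 0.727). Probe set 1418718_at gave 293 and 190 (Absent) in p57-/- against 123 and 189 in p57+/+, with a change of 0.63 (SE 0.31, adjusted p = 0.653). The log2 differences in experiment 1 were 0.93 and 1.26, and in experiment 2 they were -0.03 and 0.01. The separation of genotypes with 1418718_at, where both p57-/- signals lay above both p57+/+ signals, rested on a gap of 190 against 189. The receptor gene Cxcr6 was Absent on every array with both of its probe sets.

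Cxcl10, which is induced by interferon and attracts T and NK cells through Cxcr3, was lower in both p57-/- arrays without passing the test. Its single probe set gave 188 and 144 in p57-/- against 205 and 285 in p57+/+, Present on all arrays. The log2 difference was -0.13 in experiment 1 and -0.99 in experiment 2. Its fitted change was -0.56 (SE 0.27, adjusted p = 0.653), with an interval of -1.16 to 0.04. Ligands that share its receptor, Cxcl9 and Cxcl11, were Absent on all arrays with both probe sets each. The receptor gene Cxcr3 gave 17.2 (Absent) and 96.7 (Absent) in p57-/- against 96.5 (Present) and 74.6 (Absent) in p57+/+. The 4 detected genes of the T and NK cell list, the cytotoxic granule genes Gzma, Gzmb, Nkg7 and Prf1, had 1 tested probe set each. All 4 had both p57-/- arrays below both p57+/+ arrays, beside 18.8% of all tested probe sets. With limma, 0 of the 4 had an unadjusted p under 0.05, and their adjusted p-values ran from 0.653 to 0.792. Their part in the Cxcl10 signal was not tested.

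Among the homeostatic CC ligands of epithelia, Ccl28 was lower in both experiments by a similar amount without passing the test. Probe set 1455577_at of Ccl28, which binds Ccr10, gave 40.3 and 59.4 in p57-/- against 63.0 and 94.8 in p57+/+. The log2 differences were -0.64 and -0.67, and the fitted change was -0.66 (SE 0.45, adjusted p = 0.749). The highest p57-/- and the lowest p57+/+ signal differed by little, 59.4 against 63.0. Of its other probe sets, 1450217_at was Absent on all arrays at 83.5 and 95 in p57-/- against 99.4 and 78.5 in p57+/+, and 1450218_at was Present in p57-/- replicate 1 alone, at 23.6.

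Ccl27a, the skin-homing chemokine that also binds Ccr10, gave 244 and 320 in p57-/- against 243 and 231 in p57+/+. Its fitted change was 0.24 (SE 0.23, adjusted p = 0.819), and the p57-/- and p57+/+ signals of experiment 1 were nearly equal. The gene has near-identical copies, and its probe set ends in _x_at, so its signal is uncertain as a measure of this gene alone. The Ccr10 gene was Absent on all arrays.

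Ccl25, the thymus and gut chemokine whose receptor is Ccr9, gave opposite directions with its probe sets. Probe set 1458277_at gave 127 and 112 in p57-/- against 79.5 (Absent) and 118 in p57+/+, a change of 0.30 (SE 0.33, adjusted p = 0.850). Probe set 1418777_at gave 53.5 (Absent) and 104 in p57-/- against 113 and 67.0 in p57+/+, a change of -0.22 (SE 0.45, adjusted p = 0.922). All 5 probe sets of Ccr9 were Absent on all arrays.

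**Figure D3:**
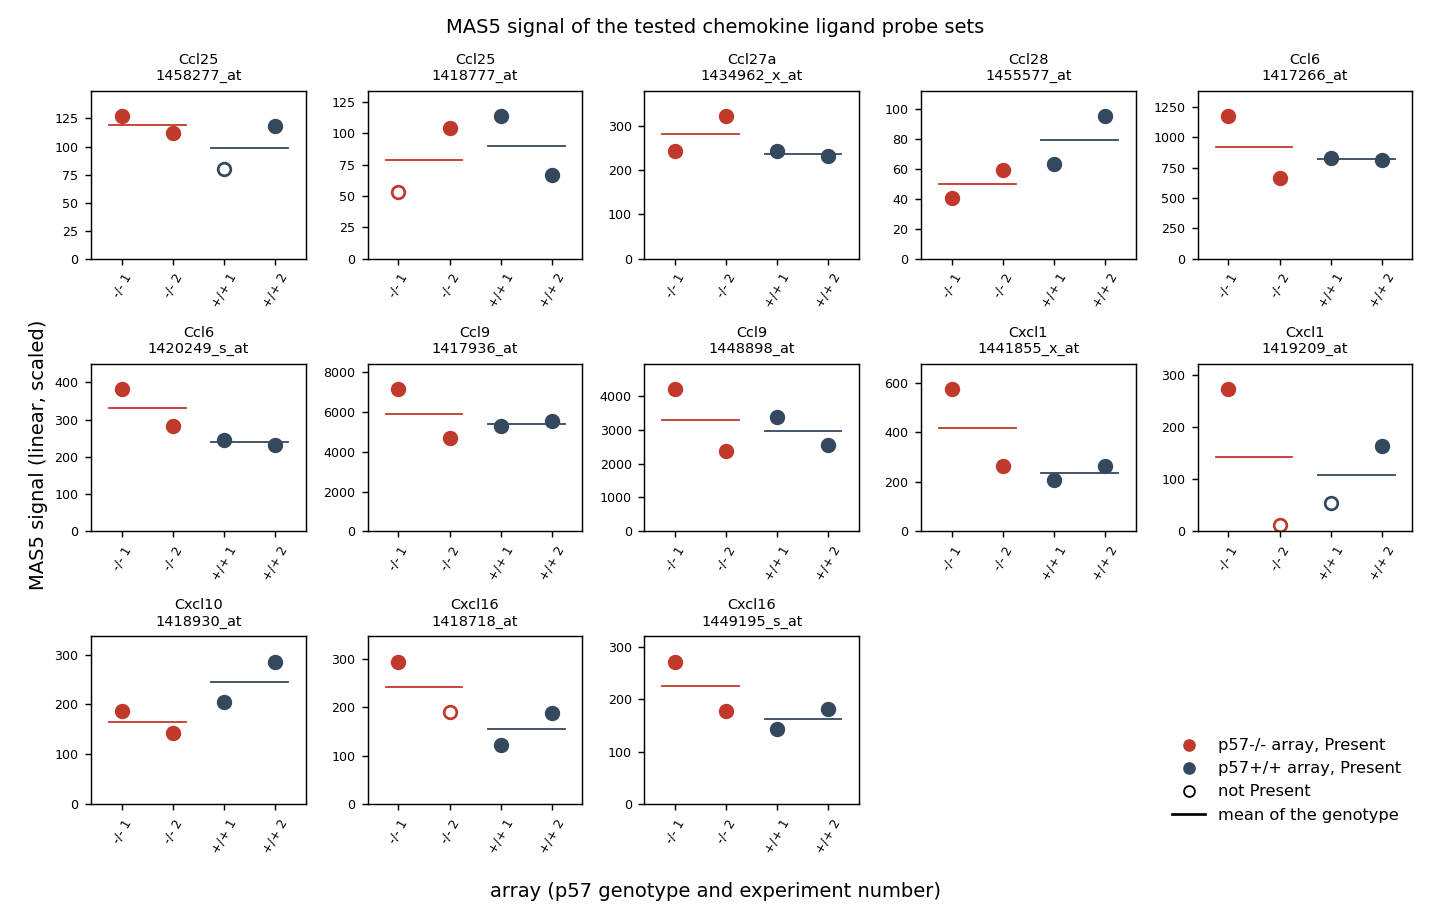
MAS5 signal (linear axis from 0, own scale in each panel) of the 13 tested chemokine ligand probe sets on the 2 p57-/- and the 2 p57+/+ arrays. Filled points are Present calls, open points are not, and lines are the means of the genotype (n = 2); both p57-/- arrays lie above both p57+/+ arrays in 3 panels and below both in 2.

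The 24 undetected ligand genes had 32 probe sets with a median signal of 27.1, while the medians of the arrays ran from 76.0 to 82.7. For 5 of these genes a signal exceeded 100, and the highest was 418. Of the monocyte attractants that bind Ccr2, Ccl2 gave 19.8 and 48.7 (both Absent) in p57-/- against 8.26 (Absent) and 95.1 (Present) in p57+/+. Ccl12 was Present in p57-/- replicate 2 alone, at 31.2, and Ccl7 on none. Ccl24, an eosinophil attractant that binds Ccr3, was Present in p57+/+ replicate 1 alone, at 409, and gave 297 and 350 in p57-/- and 418 in p57+/+ replicate 2, all Absent.

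Cxcl13, which draws B cells into lymphoid follicles, was Present in p57+/+ replicate 1 alone with both probe sets. Probe set 1448859_at gave 99.1 and 118 in p57-/- against 132 and 78.2 in p57+/+, and 1417851_at gave 57.3 and 63.9 (both Marginal) in p57-/- against 86.4 and 40.8 in p57+/+. The genes Present on no array were Ccl1, Ccl3, Ccl4, Ccl5, Ccl7, Ccl8, Ccl11, Ccl17, Ccl20, Ccl22, Cx3cl1, Cxcl2, Cxcl5, Cxcl9, Cxcl11, Cxcl14, Cxcl15, Cxcl17 and Xcl1. An Absent call does not show that a transcript was missing, since each probe set has its own background.

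Of the 27 ligand probe sets Present on no array, 4 had both p57-/- signals above both p57+/+ signals and 5 had both below. Thus 9 of 27 lay apart, beside 38.6% of the tested probe sets. That share is of brighter probe sets, Present on at least 2 arrays, and none was taken over probe sets Present on no array. Those above were of Ccl3, Ccl4, Ccl7 and Cxcl11, and those below were of Cx3cl1, Cxcl2, Cxcl15 and Cxcl14, the last with both of its probe sets. Ccl4, an inflammatory CC chemokine named here after its values were seen, gave 142 and 156 in p57-/- against 69.7 and 73.8 in p57+/+, with a lowest detection p of 0.0952. None of these signals had a Present call, so no fold is given.

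The arrays were also compared within each experiment, where p57+/+ replicate 1 lacked the Y-linked transcripts of its p57-/- counterpart and p57+/+ replicate 2 had Xist Absent on 1427262_at. At 2-fold or more, 3 of the 13 probe sets were higher in p57-/- in experiment 1, beside 2.27% of all tested, and 1 was lower, beside 2.11%. In experiment 2 there were 0 higher, beside 1.59%, and 1 lower, beside 2.49%. The 3 were both tested Cxcl1 probe sets and 1418718_at of Cxcl16, so they stand for 2 genes. No ligand was 2-fold higher in both experiments (0.167% of all) or 2-fold lower in both (0.281%), and 1 met the 2-fold mark in opposite ways (0.307%). That 1 was 1419209_at of Cxcl1, whose lower signal was Absent in each experiment. The difference between the experiments itself could not be tested with 1 array of each genotype in each.

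Among the 13 probe sets, 9 had their highest signal in p57-/- replicate 1, beside 30.1% of all tested probe sets. These 9 belong to Cxcl1, Ccl6, Ccl9, Cxcl16 and Ccl25, and probe sets of 1 gene are not independent of each other. The signs of the differences ran higher in experiment 1 and lower in experiment 2 for 7 of 13, beside 25% of all. Both p57-/- arrays lay above both p57+/+ arrays for 3 of 13, beside 19.8%, and below both for 2 of 13, beside 18.8%, so that they lay apart for 5 of 13, beside 38.6%. The difference was positive in both experiments for 3 of 13, beside 27.9%, and negative in both for 2 of 13, beside 26.8%. The shares of these 5 counts lie near those of all probe sets. The median log2 change of the 13 was 0.10, beside 0.01 over all tested, with 0.50 in experiment 1 and -0.08 in experiment 2.

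**Figure D4:**
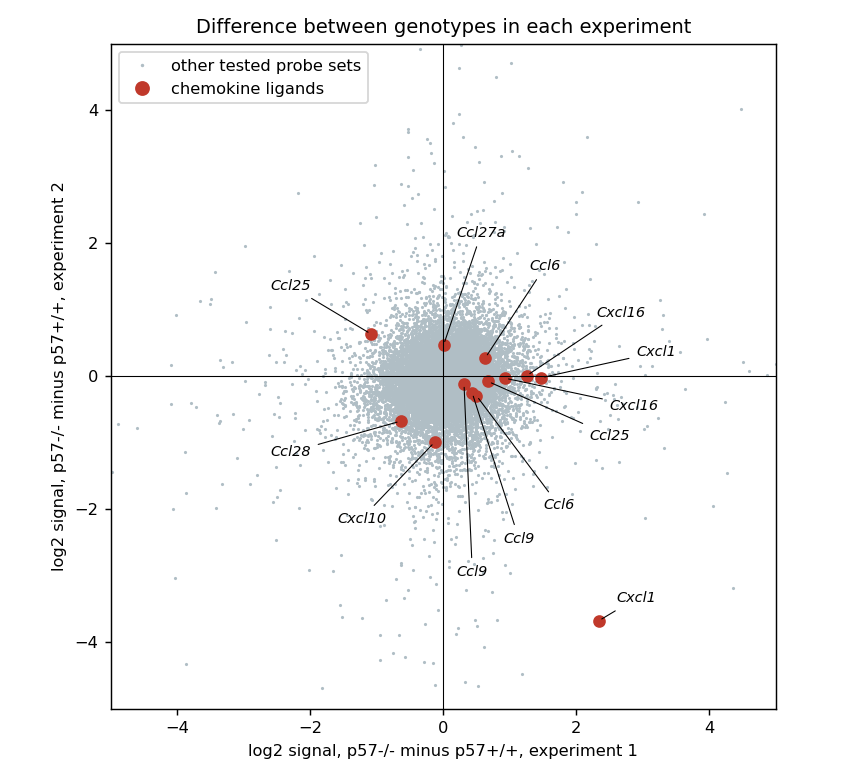
Log2 signal of p57-/- minus p57+/+ in experiment 1 (x axis) and experiment 2 (y axis) for the 13 tested chemokine ligand probe sets (large points, named) and all other tested probe sets except Cdkn1c (grey); 22 grey points lie outside the axes. Most ligand points lie right of 0 and close to 0 on the y axis, and the Cxcl1 probe set 1419209_at lies far to the lower right, where the lower signal of each experiment was Absent.

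The receptor genes were few as well. Of the chemokine receptor list, 4 of the 16 genes on the array were Present on at least 2 arrays, beside 64.1% of all genes. The 4 were the monocyte and macrophage receptors Ccr1, Ccr2 and Cx3cr1 and the stem cell and leukocyte receptor Cxcr4. Another 10 were Absent on all arrays. None of their 6 probe sets passed the limma threshold, while 3 had an unadjusted p under 0.05, beside 7.67% of all tested. All 6 had positive fitted changes, with a median of 0.37 on the log2 scale, beside 0.01 over all tested probe sets. The first experiment gave them a median of 0.49 (0.03 over all tested), and the second 0.29 (-0.01). No share of positive changes was taken over all tested probe sets. The 6 belong to 4 genes, with 2 each for Ccr1 and Ccr2, and probe sets of 1 gene are not independent of each other. Both p57-/- arrays lay above both p57+/+ arrays for 4 of the 6, beside 19.8% of all tested.

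Cx3cr1, the receptor for the undetected ligand Cx3cl1, gave 453 and 428 in p57-/- against 269 and 331 in p57+/+, which is 0.56 on the log2 scale (SE 0.20, adjusted p = 0.578). Ccr1, which binds Ccl6 and Ccl9, gave 709 and 638 in p57-/- against 468 and 549 in p57+/+ with probe set 1419609_at, a change of 0.41 (SE 0.17, adjusted p = 0.638). Its other probe set gave 104 and 77.9 against 70.2 and 72.4, a change of 0.34 (SE 0.37). Cxcr4 gave 634 and 609 in p57-/- against 474 and 469 in p57+/+, a change of 0.40 (SE 0.16, adjusted p = 0.631). In these 3 genes both p57-/- arrays were higher. Cx3cr1 and Cxcr4 were named because their genotypes lay apart, so their separation is no further result. Of the 6 receptor probe sets, 5 were highest in p57-/- replicate 1, beside 30.1% of all tested, as were all those of Ccl6 and Ccl9. In Ccl6 and Ccl9, p57-/- replicate 2 was lowest with 3 of 4 probe sets.

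Of 6 atypical receptor genes, which take up chemokines without classical signalling, 5 were detected, beside 64.1% of all genes. Of their 7 tested probe sets 0 passed. Ackr1, which red cell precursors and venules express, gave 833 and 1164 in p57-/- against 1556 and 1262 in p57+/+, which is -0.51 on the log2 scale (SE 0.19, adjusted p = 0.595). The summed signal of 9 erythroid genes was 68709 and 91232 in p57-/- against 101007 and 107633 in p57+/+, and its part in the Ackr1 signal was not tested. Ackr3, a scavenging receptor, gave 1925 and 1927 in p57-/- against 1271 and 1792 in p57+/+, a change of 0.35 (SE 0.17, adjusted p = 0.653).

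**Figure D5:**
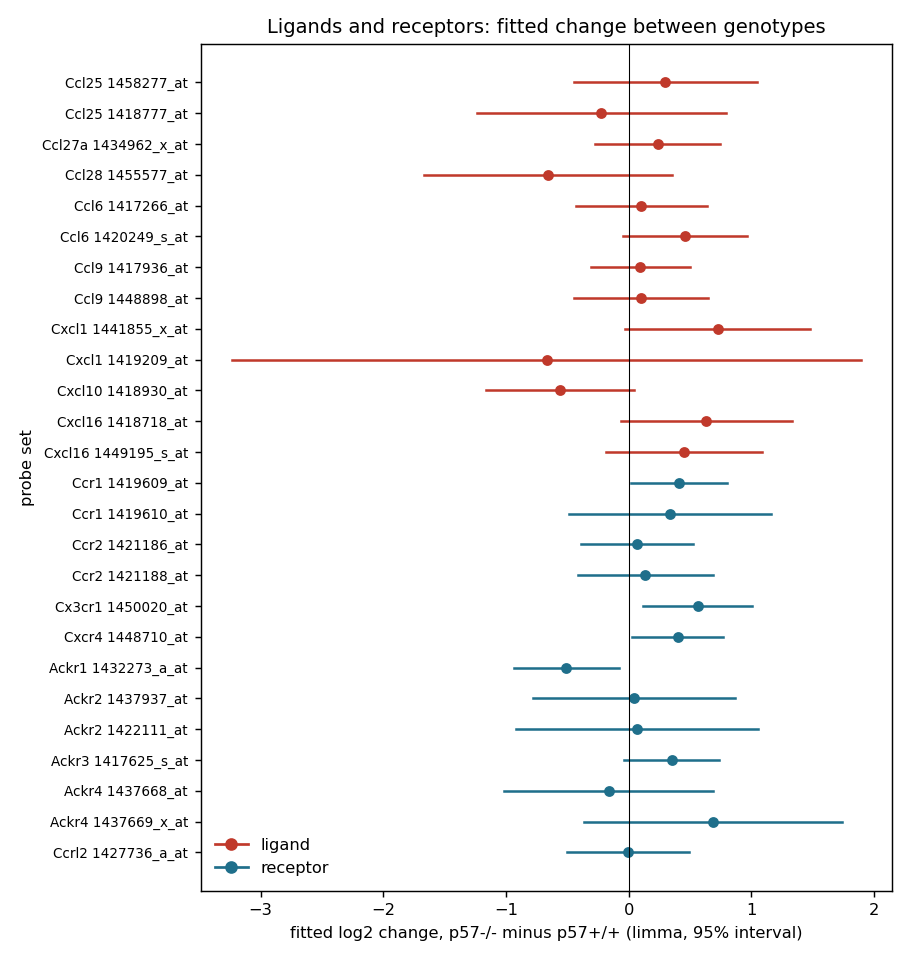
Fitted log2 change (p57-/- minus p57+/+, limma, n = 2 arrays a genotype) with its 95% interval for the 13 tested ligand and 13 tested receptor probe sets. Every ligand interval includes 0, and the adjusted p of every probe set shown lies above 0.05.

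Of 10 cytokine genes that induce chemokines, Tnf, Il1a, Il1b, Il17a, Ifng and Lta were Present on no array, and Il6, Il33, Ltb and Osm were detected. All 16 receptor and adaptor genes of the same list were detected, beside 64.1% of all genes. None of the 26 tested probe sets of this list passed, with 3 at an unadjusted p under 0.05, beside 7.67% of all tested. Il1rap, the accessory chain of the interleukin-1 receptor, gave 204 and 218 in p57-/- against 342 and 344 in p57+/+, which is -0.70 on the log2 scale (SE 0.20, adjusted p = 0.549). Il6ra, the interleukin-6 receptor gene, gave 960 and 615 against 526 and 580, a change of 0.48 (SE 0.22). For Tlr4, a Toll-like receptor of bacterial lipopolysaccharide, probe set 1442827_at gave 25.7 and 25.8 (Absent) in p57-/- against 51.2 and 52.4 in p57+/+, while of its brighter probe sets 1 lay lower and 1 higher in p57-/-. Tlr3, which senses double-stranded RNA, gave 39.7 and 23.9 (both Absent) in p57-/- against 65.0 and 47.3 in p57+/+. Neither gene passed the test, and no fold is given for Tlr3, whose p57-/- level was below detection (adjusted p = 0.741).

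Of the 25 tested probe sets for NF-kB subunits and inhibitors, none passed and 3 had an unadjusted p under 0.05, beside 7.67% of all. Nfkbia encodes the inhibitor that NF-kB itself induces. Its probe set 1438157_s_at gave 3723 and 2481 in p57-/- against 2176 and 1969 in p57+/+, which is 0.55 on the log2 scale (SE 0.18, adjusted p = 0.563). Without p57-/- replicate 2 the change was 0.85 (adjusted p = 0.0278), again with a lone p57-/- array assumed to vary like the p57+/+ arrays. Its other 4 probe sets ran from 0.04 to 0.43. Tnip1, another inhibitor of the pathway, gave 574 and 586 in p57-/- against 447 and 453 in p57+/+, a change of 0.37 (SE 0.17). Rel, an NF-kB subunit gene, gave 62.5 and 71.2 (both Absent) in p57-/- against 75.3 and 110 in p57+/+. Ikbkb, a kinase that acts on the inhibitors, gave 13.5 and 19.8 (both Absent) in p57-/- against 36.5 and 67.3 in p57+/+ with probe set 1445141_at (adjusted p = 0.642), and its brighter probe set 1426207_at had a log2 change of -0.02.

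The 19 tested probe sets of genes that control the decay of chemokine and other cytokine mRNAs gave no call. At an unadjusted p under 0.05 there were 2, beside 7.67% of all tested, and the median log2 change was -0.10. Zfp36l1, which binds AU-rich elements, gave 1676 and 1346 in p57-/- against 959 and 1344 in p57+/+, a change of 0.40 (SE 0.19). Khsrp, an mRNA-decay factor, gave 1747 and 2193 in p57-/- against 1731 and 1279 in p57+/+ with probe set 1436813_x_at, a change of 0.40 (SE 0.18), and changes of -0.31 and -0.39 with the other 2. Elavl1, which stabilises such mRNAs, gave 2555 and 2637 in p57-/- against 2875 and 2847 in p57+/+ with probe set 1448151_at, a change of -0.14 (SE 0.12). The 4 tested Rc3h2 probe sets also disagreed in sign, with changes from -0.51 to 0.42. Thus probe sets of Khsrp and Rc3h2 give no single direction for either gene.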

How the data were processed

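Affymetrix 3′ arrays with 45101 probe sets, 64 of them controls, were read for 2 p57-/- and 2 p57+/+ samples, from 250 ng of total RNA each per the labels' protocols. Per the file headers, the authors deposited a linear MAS5 signal intensity for each probe set, scaled to a common target, with a detection p-value and a call of Present, Marginal or Absent. The detection p-values in the deposited files reached 0.0483 for Present and 0.0649 for Marginal calls. The deposited value table held the same intensities to within 0.0005%. MAS5 is named in the submitters' processing notes, and no version or settings were found in the labels or file headers. Scaling fixes the average of each array, so a change in total RNA is hidden, and log2 signals of dim probe sets are noisy.

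Signals were log2 transformed without an offset or further normalization. Probe sets Present on at least 2 of 4 arrays, 22800 in all, were fitted with limma 3.58.1 in R 4.3.3 (lmFit, eBayes with trend), two-sided, without a block, with Benjamini-Hochberg adjustment over all of them and a threshold of 0.05. The fit was tested on simulated data. The number of arrays limits the precision. Symbols came from the platform annotation, and 4 probe sets whose several symbols include a family name were left out. The genes named were all members, the receptors of detected ligands, and up to 4 genes of each pathway list with the largest change among those whose genotypes lay apart. The members and lists were chosen with earlier results of these data known. Alternatives were a replicate block, no trend, quantile normalization, other filters, an offset of 50, and leaving out each array.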

Additional observations from a re-analysis of the deposited data

How the results depend on the processing

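The 13 ligand log2 changes kept their sign in 44 of 52 fits without 1 array and in 26 of 26 with an offset or quantile normalization; the block, trend and filters cannot move them. The 8 reversals fell in 5 probe sets. Over the 4 such fits, Ccl25 1418777_at ran from -0.71 to 0.26, Ccl6 1417266_at from -0.30 to 0.51, Ccl9 1417936_at from -0.21 to 0.40, Ccl9 1448898_at from -0.31 to 0.51 and Cxcl1 1419209_at from -2.87 to 1.53. Ligand probe sets past the threshold ranged from 0 to 1 (Cxcl1 1441855_x_at, without p57-/- replicate 2), inducer and NF-kB probe sets from 0 to 1 (Nfkbia, the same array), and receptors stayed at 0 in all fits run. Over all probe sets the main count of 1 ranged from 5 to 221 without 1 array, was 221 without p57-/- replicate 2, and was 30 with the experiment number as a replicate block. The same-numbered arrays did not deviate together (correlation across probe sets 0.0046). This cannot show that they were unpaired, and the labels do not say what an experiment shared. The main fit took no block, and the fit with the block called 0 ligands and no receptor. With Present on all 4 arrays required, limma called 0, with 1573 at an unadjusted p under 0.05 and Cdkn1c left out by the filter. At least 2-fold changes in both experiments fell to 3 higher and 11 lower with an offset of 50, which shrinks dim changes. Without a filter they were 1163 and 1705 of 45037 probe sets. Of the 48 ligand probe sets these held 1 higher (Ccl4) and 2 lower (both Cxcl14). Those ligand signals were Absent on all arrays, so the size of their change was not measured. Asking for 1 Present array gave 13 detected ligand genes, or 40.6%, beside 70% of all genes. Signals under about the lowest Present signal carry no order.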

Other observations

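The platelet chemokine genes Pf4 and Ppbp encode CXC ligands under symbols of another form, so they were not counted in the family. Pf4 gave 8448 and 5127 in p57-/- against 4728 and 5417 in p57+/+, which is 0.38 on the log2 scale (SE 0.20, limma adjusted p = 0.683), and it passed without p57-/- replicate 2 at 0.74 (adjusted p = 0.0439), in a fit that takes the spread from the p57+/+ arrays. Ppbp, adjacent to Cxcl5 in the gene order, gave 5619 and 3920 in p57-/- against 3848 and 4471 in p57+/+, a change of 0.18 (SE 0.17, adjusted p = 0.825). Both were highest in p57-/- replicate 1, as 9 of the 13 tested ligand probe sets were. Pf4 and Ppbp are also part of the megakaryocyte sum given above, so these are not separate observations.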
